A study of Mus musculus with 9 samples.

Results

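In the kidneys of male ICR mice, 5 enzymes that make glutathione or attach it and other groups to foreign and endogenous compounds were called by the authors for a difference with age or with 3-hydroxybutyrate (3HB), each of them for 1 comparison. Compared with young mice, old mice had more Gstt1 and Tpmt and less Gstm2. Compared with old mice, those of the same age given 3HB had more Gclc and less Ugt1a1. These 5 genes were chosen by name as the glutathione and conjugation enzymes among the 489 distinct genes of the 2 deposited tables. Gclc and Ugt1a1 stood in the table for 3HB against old (113 genes), and Gstt1, Gstm2 and Tpmt stood in the table for young against old (389 genes). The tables share 13 genes, and no member is among them.

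Kidney RNA was sequenced in 3 groups of 3 samples, called mice here, namely young (2 months old), old (20 months old, untreated) and 3HB. The 3HB mice were also 20 months old and had drunk water with the sodium salt of 3HB (1 g/L) since the age of 11 months. Both tables give a normalised expression value for each of the 9 mice, and each is limited to genes called in its own comparison. The test and threshold behind these calls, the kind of normalisation and the reads per mouse are not given in the sources used here, so the depth behind each value is unknown. The labels number the samples of a group without stating that each is a separate animal, so the p-values measure only the spread between these samples. The methods paragraph on RNA sequencing names muscle, whereas the labels and the rest of the study's text name kidney. Of 9 proximal tubule markers, Lrp2 and Keg1 were in the tables, with Keg1 between 704.33 and 1636.64 in the 9 mice, while 0 of 5 skeletal muscle, 0 of 4 liver and 0 of 6 other nephron markers were there. A marker that is not in a table was not called and has no value, so its absence says nothing of its level. Of 8 leukocyte markers, 5 were listed for age, with Cd74, Cd79a, Mzb1 and Jchain higher and Cd8a lower in old mice. Their summed values ran from 86.1 to 167.4 in young mice, from 548.55 to 763.55 in old mice and from 382.2 to 421.7 in 3HB mice, and the listing of these genes for age, and of Cd74 for 3HB as well, largely fixed that the groups differ in this sum. Its difference between 3HB and old mice came mostly from Cd74, whose mean was 384.6 in old and 184.5 in 3HB mice. Jchain had means of 226.7 and 207.3, and the other three markers had low values. The part of these cells in the differences below was not tested.

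Glutathione is a small sulfur-containing peptide that buffers peroxides and electrophiles in cells, and the kidney proximal tubule is a main site of its turnover. Gclc is the catalytic subunit of glutamate-cysteine ligase, which performs the rate-limiting step of glutathione synthesis. Glutathione transferases, here Gstt1 of the theta class and Gstm2 of the mu class, join glutathione to electrophilic compounds. Ugt1a1 joins glucuronic acid to bilirubin and many drugs, and Tpmt transfers a methyl group to thiopurine drugs. Such reactions make compounds more soluble or less reactive before they leave the body, and many of these genes are known targets of the transcription factors Nrf2 (Nfe2l2) or Ahr.

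Changes are differences in mean log2(value + 1) between 2 groups, with a standard error (SE), and at low values this scale makes a change look smaller than it is. For the comparison in which the authors called a gene, the values chose it, so they are described without a test. For the other comparison with the old mice a two-sided exact permutation test over the 20 splits of 6 mice was used, whose smallest p with 3 mice against 3 is 0.1. No p under the usual threshold of 0.05 can therefore be reached. The old mice serve in both the age and the 3HB comparison, and every other comparison of a gene uses again 1 of the 2 groups on which it was called. For 3HB against young no p is given, because it uses the young or 3HB values that chose the gene. The tests that remain use again the old values, so their p-values are not independent of the listing. Because bulk tissue was sequenced, fewer cells of a type and less RNA per cell cannot be told apart.

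Gstt1 showed the largest age difference of the members. This gene (ENSMUSG00000001663, 5 exons) lies on the minus strand at chr10:75783813-75798584 of GRCm38, in a cluster of 4 theta class genes. Its normalised expression values were 46.37, 45.15 and 105.10 in young mice, 196.66, 229.27 and 263.62 in old mice and 197.00, 208.30 and 203.90 in 3HB mice. The lowest old value was 91.56 above the highest young value, and young mouse 3 had more than the other two young mice. The means were 65.5 ± 34.3 for the young, 229.9 ± 33.5 for the old and 203.1 ± 5.70 for the 3HB mice (SD, n = 3 each), so the old mean was 3.51 times the young mean. The age difference was 1.90 (SE 0.41) on the log2 scale. Among the 271 genes listed as higher in old mice, Gstt1 ranked 105th by this difference.

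The difference of Gstt1 between 3HB and old mice was -0.17 (SE 0.12), the groups overlapped, and the exact permutation p was 0.4. It was -0.27 without old mouse 1, when the groups no longer overlapped, and -0.06 without old mouse 3. Against young mice the 3HB mice were higher by 1.73 (SE 0.39) without overlap. The 3HB mice lay close to each other, with an SD of 0.04 on the log2 scale against 0.68 in young and 0.21 in old mice.

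**Figure D1:**
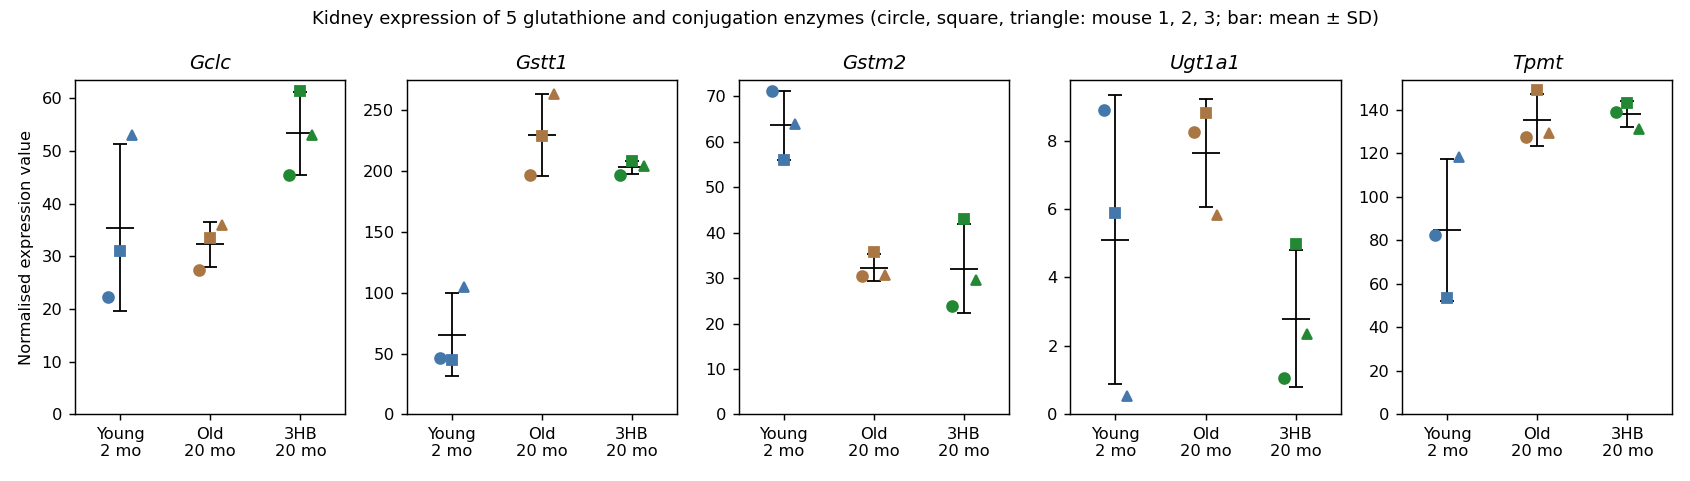
Normalised expression value (vertical axes, each starting at 0, no unit given) of Gclc, Gstt1, Gstm2, Ugt1a1 and Tpmt in kidneys of young (2 months), old (20 months) and 3HB (20 months) mice; circles, squares and triangles are mice 1, 2 and 3 of each group, and bars are the mean ± SD of 3 mice. Gstt1 lies at 196.66 or above in all 6 mice of 20 months and at 105.10 or below in the young mice, and the 3HB mice lie above the old mice for Gclc and below them for Ugt1a1.

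Gstm2, a transferase of another class, was lower in old mice. It (ENSMUSG00000040562, 8 exons) lies on the minus strand at chr3:107981702-107986453 of GRCm38 in a cluster of 7 mu class genes. Its values were 71.13, 55.92 and 63.84 in young mice, 30.43, 35.69 and 30.78 in old mice and 23.83, 42.93 and 29.56 in 3HB mice. Every young mouse lay above every mouse of 20 months, by at least 20.23 for the old mice. The mean was 63.6 ± 7.61 for the young, 32.3 ± 2.94 for the old and 32.1 ± 9.80 for the 3HB mice (SD, n = 3 each). The young mean was thus 1.97 times the old mean, and the age difference was -0.95 (SE 0.12). It ranked 69th of the 118 genes listed as lower in old mice.

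With 3HB, the mean of Gstm2 lay beside that of old mice while the spread among mice was wider, with a log2 SD of 0.42 in 3HB mice and 0.12 in old mice. The difference between 3HB and old was -0.05 (SE 0.25, exact permutation p = 0.8), and its sign turned when 3HB mouse 1 was left out (0.14) or old mouse 2 was left out (0.03). Without 3HB mouse 2 it was -0.27 and the groups no longer overlapped. The difference between 3HB and young was -0.999 (SE 0.26), without overlap. Both transferases thus showed a 3HB mean near the old mean, Gstt1 above and Gstm2 below the young mean.

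Reads of Gstm2 can be shared with its neighbours only in part. Of the 1015 windows of 50 bases along its transcript, 95 (9.36%) were also found in a transcript of another gene (Gstm1, Gm12499 or Gm6665), and of the windows of 150 bases, the read length, 0 were. The longest stretch shared with Gstm1 is shown because a read piece inside it matches both genes. It is coding sequence in exon 4 of Gstm2, at chr3:107985254-107985313 of GRCm38, given 5′ to 3′ on the minus strand.
Gstm2 and Gstm1: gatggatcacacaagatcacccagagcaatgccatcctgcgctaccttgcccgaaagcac

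Tpmt was the third member listed for age. It (ENSMUSG00000021376, 9 exons) lies on the minus strand at chr13:47022482-47044737 of GRCm38. Its values were 82.50, 53.52 and 118.39 in young mice, 127.75, 149.06 and 129.30 in old mice and 139.29, 143.41 and 131.41 in 3HB mice. The old mice lay above the young mice by a gap of 9.36, which is small beside the range of the young mice. The means were 84.8 ± 32.5 for the young, 135.4 ± 11.9 for the old and 138.0 ± 6.10 for the 3HB mice (SD, n = 3 each), and the age difference was 0.74 (SE 0.33), or 0.45 without young mouse 2. It stood at place 241 of the 271 genes listed as higher in old mice, among the smaller changes.

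For 3HB against old mice Tpmt differed by 0.03 (SE 0.08), with overlap and an exact permutation p of 0.8. It was -0.0092 without old mouse 1 and 0.10 without old mouse 2, when the groups no longer overlapped. Against young mice the 3HB mice were higher by 0.77 (SE 0.33), without overlap. On the opposite strand, the pseudogene Gm18807 overlaps 641 exon bases of Tpmt, and whether reads were counted by strand is not stated.

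Of the 5 members, 3 showed no overlap between old and young mice, and these were the 3 listed for age. The share without overlap in that comparison was 92.5% of genes listed for age and 75.9% of all 489 listed genes, so nothing can be read from the count. For 3HB against old these 3 genes all overlapped, as did most genes listed for age alone, of which 11.7% did not. Of all 5 members, 2 to 3 were without overlap on leaving out 1 mouse, with 3 without old mouse 1, old mouse 2 or 3HB mouse 2. The share of all 489 listed genes was then 37%, 41.7% and 40.7%, and that of genes listed for age alone 20.2%, 25.3% and 24.7%. For 3HB against young all 3 were without overlap, beside 83.5% of the genes listed for age alone. The median difference between 3HB and old over these 376 genes was 0.07, and the median size was 0.26. The values of -0.17, -0.05 and 0.03 for the members all lay below that size.

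Gclc was higher in the mice given 3HB. It (ENSMUSG00000032350, 16 exons) lies on the plus strand at chr9:77754535-77794485 of GRCm38. Its values were 22.35, 31.09 and 53.00 in young mice, 27.52, 33.43 and 35.95 in old mice and 45.56, 61.47 and 53.05 in 3HB mice. All 3HB mice lay above all old mice, by at least 9.61, while the young mice ranged from below the old mice to the level of the 3HB mice. The means were 35.5 ± 15.8 for the young, 32.3 ± 4.33 for the old and 53.4 ± 7.96 for the 3HB mice (SD, n = 3 each). The 3HB mean was 1.65 times the old mean, with a difference of 0.71 (SE 0.17), and Gclc ranked 29th of the 43 genes listed as higher with 3HB.

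Between old and young mice, Gclc differed by -0.05 (SE 0.37), with overlap and an exact permutation p of 1.0. Its sign turned with young mouse 3 left out (0.27). The 3HB mice were 0.65 (SE 0.37) above young mice, with overlap, and this became 0.37 without young mouse 1 and 0.98 without young mouse 3. The differences from young and from old mice were thus of like size, and the young mice varied more.

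A marker of the proximal tubule moved with Gclc. Lrp2, which encodes the endocytic receptor megalin of these cells, was also listed for 3HB, with values of 68.59, 70.38 and 116.60 in young mice, 89.42, 87.86 and 105.30 in old mice and 148.08, 154.52 and 143.00 in 3HB mice. Its difference between 3HB and old was 0.66 (SE 0.09). Young mouse 3 had the highest Lrp2 and the highest Gclc of the young mice. The ratio of Gclc to Lrp2 was 0.308, 0.380 and 0.341 in old and 0.308, 0.398 and 0.371 in 3HB mice, which overlap, and its log2 difference was 0.06 (SE 0.14). This ratio was formed after the values had been seen, and it shows only that both genes differed by a like amount. Since Lrp2 was called as higher with 3HB, dividing by it lowers genes that differed little, and so divided Gstt1 (-0.83), Gstm2 (-0.71) and Tpmt (-0.63) were below old mice without overlap. Divided by Keg1, another tubule marker, the difference of Gclc was 0.37. Keg1 itself, listed for age and not for 3HB, differed by 0.35 (SE 0.22, exact permutation p = 0.2) between 3HB and old. Between old and young mice Keg1 differed by -0.69 (SE 0.22), without overlap. The other 7 proximal tubule markers were not in a table, and the part of tubule cells in the result was not tested.

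**Figure D2:**
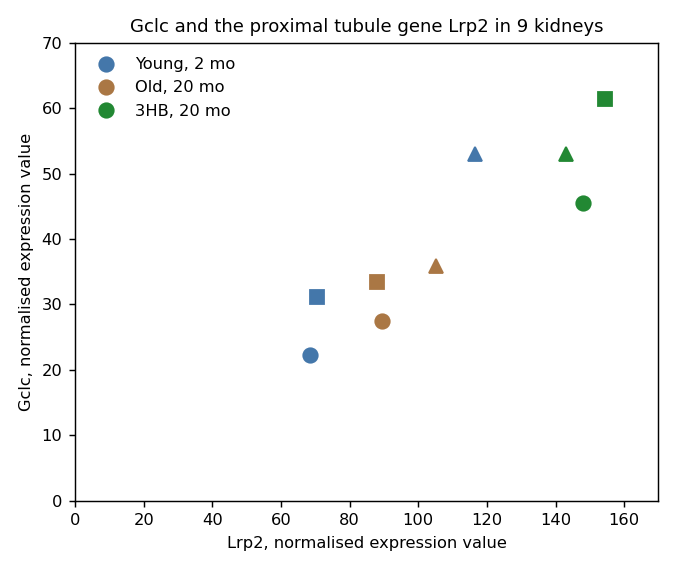
Normalised expression values of Lrp2 (horizontal axis) and Gclc (vertical axis) in each of the 9 kidneys, coloured by group, with circle, square and triangle for mice 1, 2 and 3 (the legend shows the circle only). The 3HB mice stand highest on Lrp2 (143.00 to 154.52), and young mouse 3 stands above the old mice on both axes.

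Ugt1a1 was lower with 3HB, at low values throughout. It (ENSMUSG00000089960, 5 exons) lies on the plus strand at chr1:88211959-88218997 of GRCm38. Its values were 8.89, 5.89 and 0.54 in young mice, 8.26, 8.81 and 5.83 in old mice and 1.06, 4.98 and 2.36 in 3HB mice. The highest 3HB mouse was only 0.85 below the lowest old mouse, and the young mice covered the whole range of the other two groups. The means were 5.11 ± 4.23 for the young, 7.63 ± 1.59 for the old and 2.80 ± 2.00 for the 3HB mice (SD, n = 3 each). The old mean was 2.73 times the 3HB mean, and the difference between 3HB and old was -1.30 (SE 0.47). Ugt1a1 had the 4th largest change of the 70 genes listed as lower with 3HB, and the log2 scale with 1 added understates it at such low values.

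Between old and young mice Ugt1a1 differed by 0.85 (SE 0.84), with overlap and an exact permutation p of 0.7, and the difference ran from 0.05 without young mouse 3 to 1.39 without young mouse 1. The 3HB and young mice differed by -0.45 (SE 0.93), with overlap and with values from 0.09 without young mouse 1 to -1.25 without young mouse 3, when the groups no longer overlapped. Both comparisons with young mice thus depended on single young mice, whose log2 SD was 1.42.

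How the reads of Ugt1a1 were assigned bears on its values. The 9 Ugt1a genes of the mouse span chr1:88055388-88220002, and in each of them an upstream exon is joined to the same exons 2 to 5 of Ugt1a1. Of the Ugt1a1 transcript, 913 bases (41.1%) are its own exon 1 at chr1:88211959-88212871, and 1311 bases (58.9%) are shared. The junctions are shown, for Ugt1a1 and 4 relatives, with the last 30 bases of the exon before the junction in lower case and the first 30 bases of the shared exon, which begins at position 88215044, in capitals.
Ugt1a1: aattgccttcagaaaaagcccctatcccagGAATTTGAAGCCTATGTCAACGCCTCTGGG
Ugt1a2: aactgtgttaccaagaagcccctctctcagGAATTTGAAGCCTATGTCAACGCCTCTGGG
Ugt1a6a: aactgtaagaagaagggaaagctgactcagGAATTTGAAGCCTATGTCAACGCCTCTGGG
Ugt1a9: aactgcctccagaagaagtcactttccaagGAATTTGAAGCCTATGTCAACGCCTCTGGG
Ugt1a10: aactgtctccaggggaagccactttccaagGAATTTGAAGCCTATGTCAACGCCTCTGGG
The 30 bases in capitals were the same in all 9 genes. The exon before the junction of Ugt1a6a is annotated for Ugt1a7c as well. Of the 30 bases before the junction, Ugt1a2 and Ugt1a10 had 21 in common with Ugt1a1, Ugt1a9 had 23 and Ugt1a6a had 14. Of the 2075 windows of 150 bases in the Ugt1a1 transcript, 1165 (56.1%) were found word for word in at least 1 of the 8 other Ugt1a genes. No other Ugt1a gene was in either table. The authors' notes name HISAT2 and StringTie, without saying how such reads were divided, so the values may hold reads of other Ugt1a transcripts, which cannot be told apart here. On the opposite strand the transcript Gm20528 overlaps 922 exon bases of Ugt1a1, and whether the counting used strand is not stated.

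**Figure D3:**
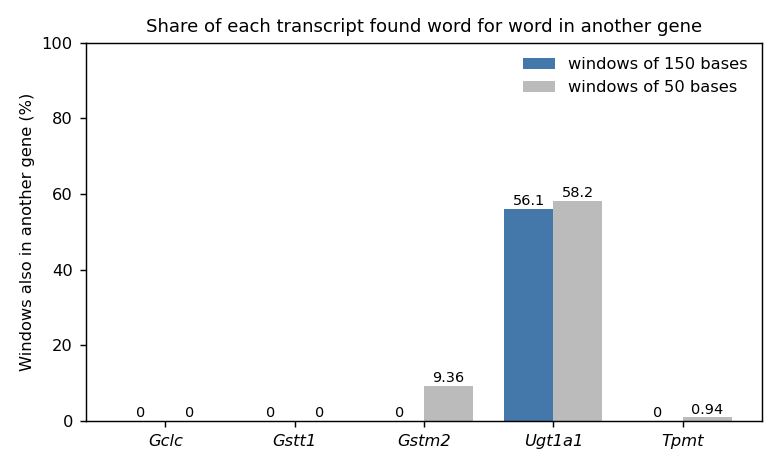
Percent of all windows of 150 bases (blue) and 50 bases (grey) along the annotated transcript of each member that also occur in a transcript of another gene. Ugt1a1 stands apart with 56.1% and 58.2%, and windows of 150 bases gave 0 for the other 4 members.

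Of the 5 members, 2 showed no overlap between 3HB and old mice, Gclc and Ugt1a1, which are those listed for 3HB. The share without overlap in that comparison was 89.4% of the genes listed for 3HB and 29.7% of all 489 listed genes, and the count was fixed by the listing. Gclc and Ugt1a1 overlapped between old and young mice, where 11% of the 100 genes listed for 3HB alone did not. On leaving out 1 mouse this share ran from 14% to 48%, the highest without young mouse 3. Both members also overlapped between 3HB and young mice, where 37% of these 100 genes did not. The median size of the difference between old and young over these 100 genes was 0.28. Gclc, with -0.05, lay below it and Ugt1a1, with 0.85, above it.

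**Figure D4:**
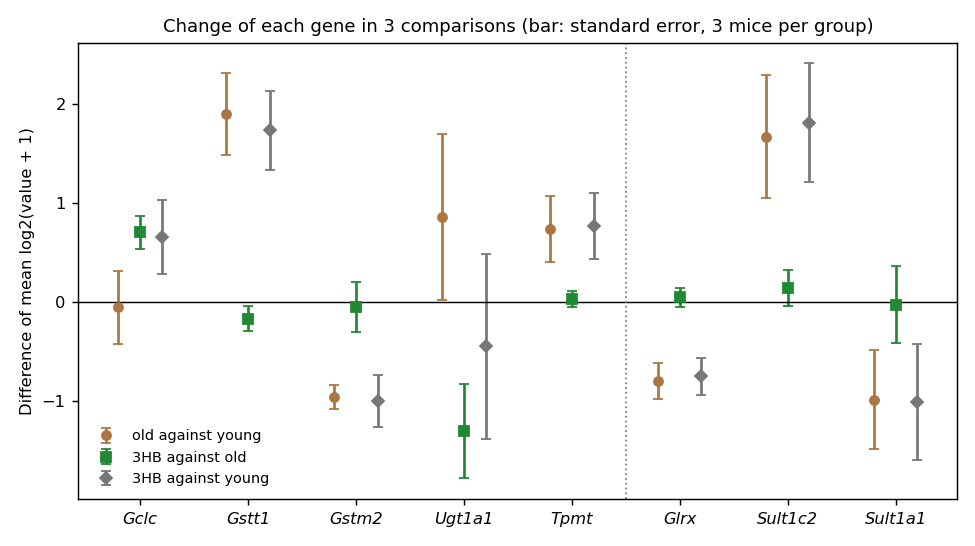
Difference of mean log2(value + 1) (vertical axis) in 3 comparisons for the 5 members and, right of the dotted line, 3 further listed genes of the same pathways; bars are standard errors with 3 mice per group. Brown circles show old minus young, green squares 3HB minus old and grey diamonds 3HB minus young; Gstt1, Gstm2 and Tpmt have green squares near 0, and Gclc and Ugt1a1 have green squares at 0.71 and -1.30.

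Ugt1a1 stood farther from the middle of its table than Gclc, and Gstt1 was the one of the age genes above the middle. The median size of the difference was 1.37 over the genes listed for age, against 1.90 for Gstt1, 0.95 for Gstm2 on the log2 scale in the sense young minus old, and 0.74 for Tpmt. Over the genes listed for 3HB it was 0.69, against 0.71 for Gclc and 1.30 for Ugt1a1 in the sense old minus 3HB.

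**Figure D5:**
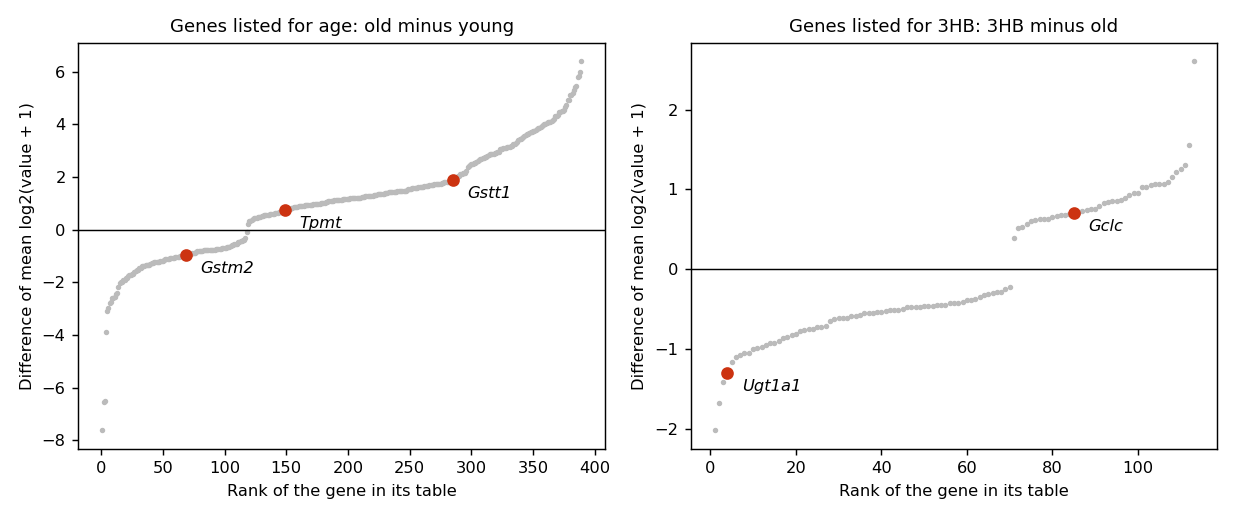
Difference of mean log2(value + 1) for every gene listed for age (left, 389 genes, old minus young) and for 3HB (right, 113 genes, 3HB minus old), each sorted from the lowest to the highest, with members as red points. Gstt1 (1.90), Tpmt (0.74), Gstm2 (-0.95) and Gclc (0.71) lie inside the main run of genes, and Ugt1a1 (-1.30) lies near the lower end.

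Young mice had the largest log2 SD of the 3 groups for Gclc, Gstt1, Ugt1a1 and Tpmt. How many of the other listed genes share this was not counted, so it is not read as a trait of these enzymes. The log2 SD was 0.61 in young mice, 0.19 in old mice and 0.21 in 3HB mice for Gclc, and 0.57, 0.12 and 0.06 for Tpmt. For Gstm2 the young mice had 0.17, below the 0.42 of 3HB mice. Young mouse 3 was the one farthest from the young median for 3 of the 5 members, and for 169 of 412 listed genes (41.0%). Other groups had such a mouse too, with old mouse 3 farthest for 221 of 469 genes (47.1%) and 3HB mouse 2 for 190 (40.5%). Young mouse 3 had the highest young value of Gclc, Gstt1 and Tpmt and the lowest of Ugt1a1. Without it the members without overlap between 3HB and young mice were 5 of 5 instead of 3, beside 83% instead of 73% of all 489 listed genes.

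The wider pathways were looked up by lists of 113 genes, of which 8 were in a table, 5 of them the members chosen by name. Uncalled genes are absent, so no share over all genes can be set beside this count. The genes that are not in a table were not called, and their levels are unknown. Of 19 genes of glutathione synthesis and turnover, only Gclc was listed. Its partner Gclm, the modifier subunit, and Gss, which completes glutathione, were not. Of 26 glutathione transferases only Gstt1 and Gstm2 were listed, 1 higher and 1 lower in old mice. Of 22 UDP-glucuronosyltransferases and their helpers only Ugt1a1 was listed. Of 14 other Nrf2 targets 0 were listed, Nqo1 and Hmox1 included.

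Of 13 genes of peroxidases and redox enzymes, Glrx was listed. Glutaredoxin, its product, uses glutathione to release glutathione bound to protein thiols. Its values were 137.23, 141.96 and 97.79 in young mice, 68.03, 68.11 and 77.39 in old mice and 72.37, 80.87 and 67.69 in 3HB mice. Old mice were below young mice without overlap, with a difference of -0.79 (SE 0.18), and 3HB differed from old by 0.05 (SE 0.10, exact permutation p = 0.7).

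Of 19 methyl-, sulfo- and acetyltransferases, Sult1c2 and Sult1a1 were listed beside Tpmt. Both are sulfotransferases, and they differed with age in opposite directions. Sult1c2 had 70.13, 18.80 and 64.26 in young mice, 179.00, 116.88 and 137.58 in old mice and 150.87, 165.98 and 155.02 in 3HB mice. It was higher in old mice by 1.67 (SE 0.62) without overlap, and 3HB differed from old by 0.14 (SE 0.18, exact permutation p = 0.5). Sult1a1 had 32.55, 9.91 and 20.63 in young mice, 7.44, 8.65 and 11.57 in old mice and 5.83, 14.49 and 8.18 in 3HB mice. Its age difference was -0.98 (SE 0.50), but old mouse 3 lay above young mouse 2, and 3HB differed from old by -0.03 (SE 0.38, exact permutation p = 0.9). Over the lists, 3 genes were listed as higher and 3 as lower in old mice, and 1 as higher and 1 as lower with 3HB.

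The KEGG pathways printed in the tables placed some of these enzymes together, but none held all members, and Gclc and Tpmt shared none. The members were chosen by name as such enzymes, which largely fixed their share in these pathways. Glutathione metabolism held 3 listed genes, all members, namely Gclc, Gstt1 and Gstm2. Drug metabolism by other enzymes held 4, namely Ugt1a1, Gstt1, Gstm2 and Tpmt. Both cytochrome P450 pathways of drugs and xenobiotics held Ugt1a1, Gstt1 and Gstm2, and 0 other listed genes.

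The listed genes whose pattern over the 9 mice was most like that of each member were found by the root mean square difference of log2(value + 1), each gene centred on its own mean. They came for each member from the table that listed it, which the listing largely fixed, since only the 489 listed genes were searched. For Gclc they were Atp2a2 (0.16), Hipk2 (0.16) and Dock8 (0.17). For Gstt1 they were Wfdc16 (0.21), Cstb (0.23) and Havcr1 (0.23), the last of which encodes the tubule injury marker KIM-1. For Gstm2 they were Crip2 (0.21), Bcam (0.21) and Krt7 (0.22), and for Tpmt Rhoq (0.22), Zfp27 (0.22) and Zfp873 (0.23). The genes nearest to Ugt1a1 lay farther off, with Rnaset2b at 0.53, Pam16 at 0.57 and Rps20 at 0.67. Ugt1a1 had low values and a log2 SD of 1.42 in young and 0.77 in 3HB mice. Such spread enters the distance, so these values do not show a distinct pattern.

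Promoter windows from RefSeq, 250 bases before to 50 bases after the start in GRCm38.p6, were found for 4 of the 5 members and searched on both strands. The core of the Nrf2 element, TGACNNNGC, was in 0 of the 4 windows of Gstt1, Gstm2, Ugt1a1 and Tpmt, and in 12.4% of all 32851 windows. The core of the Ahr element, GCGTG, occurred 4 times in the Tpmt window and 0 times in the other three, and 32.4% of all windows held it. A missing match says only that these letters are not in this window, and a match is no evidence of binding.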

How the data were processed

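The authors deposited 2 tables of normalised expression values with 2 decimals, 1 for each comparison with the old mice (3HB, young), each limited to the genes they called. Per the labels, kidney RNA of mice was sequenced, and the submitters' processing notes name CASAVA, HISAT2, StringTie and GRCm38. Whether the deposited values are TPM or FPKM, the annotation release and the test behind the calls are not given in the sources used here. Because uncalled genes are absent, no fit across genes, enrichment or normalisation was made. The members and gene lists were chosen with earlier results of these data known.

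Each gene's change was the difference of group means of log2(value + 1), with its SE, and two-sided exact permutation tests are given only for the comparison with old mice in which the authors had not called the gene. Overlap means that the ranges of 2 groups of 3 mice meet. Named genes are the members, genes of the pathway lists, of shared KEGG pathways or of the same gene families in a table, the 3 listed genes nearest to each member and the markers. Positions, transcripts and shared windows came from GENCODE mouse release 21 (GRCm38), using for each gene the protein-coding transcript with the longest coding part, and promoter windows from RefSeq (GRCm38.p6). Protein sequences were not used here. The change and permutation steps were tested on simulated data. Alternatives covered the pseudocount (0.1), medians, arithmetic means, leaving out members whose highest group mean is under 1, the replicate numbers and leaving out each mouse. Precision rests on 3 mice per group and the depth is unknown. The scripts ran in Python 3.11.15 (numpy 2.4.6, scipy 1.17.1, pandas 2.3.3, matplotlib 3.10.9).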

Additional observations from a re-analysis of the deposited data

How the results depend on the processing

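Of 176 alternatives over 18 results, 165 kept the direction and moved by less than the SD between mice (counts by at most 1.5 times). Some of these could not move. The replicate block leaves every difference at its value by arithmetic, and the filter on the highest group mean removed no member. The direction reversed for Gclc between old and young with the median of the mice (0.10) and on leaving out 1 mouse (from -0.33 to 0.27), for Gstm2 between 3HB and old on leaving out 1 mouse (from -0.27 to 0.14), for Tpmt between 3HB and old (from -0.0092 to 0.10) and for Ugt1a1 between 3HB and young (from -1.25 to 0.087). For these the cause was not tested, and each main value was below its SE. The Gclc difference between 3HB and old of 0.71 became 0.061 when divided by Lrp2 and 0.37 when divided by Keg1, both chosen after seeing the data. The members without overlap between 3HB and young were 3 to 5 on leaving out 1 mouse, with 5 without young mouse 3, where the share rose from 37% to 73% of genes listed for 3HB alone and from 83.5% to 87% of those listed for age alone.

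The replicate numbers did not pair the mice, since correlations of same-numbered deviations over 489 genes ran from -0.24 to 0.16. With the number as a replicate block, every difference of the members keeps its value by arithmetic, so only its p can change. For Gstt1 between 3HB and old it was -0.17 (exact sign-flip p = 0.5, with 0.25 the smallest possible). Members with 3 differences of 1 sign were 3, 2 and 4 of 5 for old against young, 3HB against old and 3HB against young. The shares of all listed genes were 82%, 40.7% and 81%. A comparison of 3 mice with 3 cannot reach an exact permutation p under 0.1, and the counting error of low values such as those of Ugt1a1 is unknown.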
